A study of Arabidopsis thaliana with 12 samples.

Results

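The PEX11 genes of Arabidopsis thaliana encode membrane proteins of the peroxisome that elongate and proliferate this organelle. PEX11A (AT1G47750), PEX11C (AT1G01820), PEX11D (AT2G45740) and PEX11E (AT3G61070) were chosen by gene identifier, 4 of the 21882 genes of the authors' deposited table. RNA was sequenced from leaf material of cat2-2 seedlings, which lack functional CATALASE2, the main leaf catalase of peroxisomes, in 4 groups of 3 biological replicates, 1 library each. All seedlings grew in liquid medium in 96-well plates, and on day 7 the medium was replaced. In the Stress + Pakerine group the new medium held 10 µM pakerine, a sulfonamide dissolved in DMSO, and after 4 days the plates were sealed and kept for 2 further days in 24 h of light per day, conditions that promote photorespiration. The Stress group had the same 2 days with DMSO as mock treatment. The Pakerine group received 10 µM pakerine and the DMSO group mock treatment, and both were harvested after the 4 days in long days of 16 h of light. Stressed plants were therefore 2 days older at harvest and had spent 2 more days in the medium with pakerine or DMSO. Stress, age, day length and time in that medium cannot be told apart. No group is wild type, since every plant carried cat2-2.

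The authors deposited 1 value per gene and group, the mean over the libraries of that group in CPM (reads of a gene scaled to a common total of counted reads). Single libraries are not resolved in it, so that no spread between replicates and no test on them is given here, and whether a difference is larger than that spread was not tested. Values are given instead with a 95% counting interval, that is, with the error of counting reads alone. The lowest means are sums of the worth of whole reads and gave back the number of counted reads per library, between 28472236 and 33512708. The sample labels contradict themselves for 6 of the 12 libraries, whose titles and treatment entries place them in different groups (Stress or Pakerine). Groups were therefore read from the column headings of the table, and the contradiction was not resolved. The headings mark the stressed groups as RGCL, which the sources used here do not explain and which was taken to stand for the stress. By their sum, leaf markers were the strongest of the markers examined. Over 5 genes their means summed to 21822 CPM in Stress + Pakerine plants and 20158 CPM in Stress plants. The sums were 22009 CPM in Pakerine plants and 20988 CPM in DMSO plants. Single leaf markers differed in direction. LHCB2.1 and RCA were at least 1.5-fold higher in Stress than in DMSO (log2 ratios 0.69 and 0.68), and LHCB1.3 at least 1.5-fold lower (-0.67). For Pakerine against DMSO, CA1 was at least 1.5-fold higher (0.68) and LHCB2.1 at least 1.5-fold lower (-1.09). None passed 1.5-fold for Stress + Pakerine against Stress. The part of leaf markers in the PEX11 ratios was not tested. The 14 root markers summed to 102 CPM in Stress + Pakerine plants, 27.4 CPM in Stress plants, 125 CPM in Pakerine plants and 44.1 CPM in DMSO plants, and none of them was at 0. In bulk RNA fewer cells of a type and less RNA per cell cannot be told apart. The cat2-2 allele could not be checked from gene counts, since reads of CAT2 (AT4G35090) were counted in every group, at 108 CPM in Stress + Pakerine plants, 76.1 CPM in Stress plants, 37.2 CPM in Pakerine plants and 19.5 CPM in DMSO plants.

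Peroxisomes multiply by elongation, constriction and fission. PEX11 proteins act in the elongation step, whereas dynamin-related proteins of the DRP3 and DRP5B type and their FIS1 anchors act in fission. In Arabidopsis PEX11C, PEX11D and PEX11E are close relatives, while PEX11A is more distant from them. PEX11A has been linked to the thin peroxisomal extensions that Arabidopsis cells form under reactive oxygen stress.

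The gene models separate the family in the same way. In the RefSeq annotation of TAIR10.1, PEX11A lies on chromosome 1 (17569256 to 17570249, minus strand) and is a gene without introns. PEX11C on chromosome 1 (296001 to 298334, minus strand), PEX11D on chromosome 2 (18839435 to 18841403, plus strand) and PEX11E on chromosome 3 (22604094 to 22606878, minus strand) have 8 exons each. Identity was taken over all columns of the coding sequence alignments, with gaps counted as differences. PEX11D and PEX11E were identical in 80.7% of columns, PEX11C and PEX11E in 75.1% and PEX11C and PEX11D in 75.1%. The pairs that include PEX11A lay between 49.4% and 50.0%. Without gaps, PEX11A was identical in 386 of 674 aligned bases with PEX11C, 384 of 681 with PEX11D and 391 of 661 with PEX11E. For PEX11D and PEX11E it was 574 of 696. Despite the similarity within the PEX11C to PEX11E branch, its longest identical coding run was 23 bases, well under the read length of 75 bases. No 75-base stretch of PEX11A, PEX11C or PEX11D transcripts occurred in the transcripts of another gene. For PEX11E 21.9% of these stretches did, all in AT3G61060 (PP2-A13), a gene on the opposite strand that overlaps 489 of its exon bases. Whether the counting used strand is not given in the sources used here, so that reads of this overlap cannot be assigned with certainty. The opposite gene AT1G47740 overlaps PEX11A by 42 exon bases.

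The upstream regions of PEX11D, the most abundant member, and of PEX11E, its closest relative by coding sequence, are shown because they differ in the G-box, an element with an ACGT core that bZIP factors of light signaling such as HY5 and HYH bind. Each sequence runs 5′ to 3′ on the strand of its gene, from 250 bases before the annotated gene start to 50 bases after it, from the TAIR10.1 assembly of RefSeq. PEX11D is at chr2:18839185-18839484 on the plus strand and PEX11E at chr3:22606829-22607128 on the minus strand. Capitals mark the G-box, CACGTG.
PEX11D: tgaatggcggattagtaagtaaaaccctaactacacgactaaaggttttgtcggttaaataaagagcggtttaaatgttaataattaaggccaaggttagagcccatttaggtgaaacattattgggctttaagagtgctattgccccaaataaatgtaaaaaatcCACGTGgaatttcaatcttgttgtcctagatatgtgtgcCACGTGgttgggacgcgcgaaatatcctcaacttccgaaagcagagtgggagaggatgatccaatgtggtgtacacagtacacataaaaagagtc
PEX11E: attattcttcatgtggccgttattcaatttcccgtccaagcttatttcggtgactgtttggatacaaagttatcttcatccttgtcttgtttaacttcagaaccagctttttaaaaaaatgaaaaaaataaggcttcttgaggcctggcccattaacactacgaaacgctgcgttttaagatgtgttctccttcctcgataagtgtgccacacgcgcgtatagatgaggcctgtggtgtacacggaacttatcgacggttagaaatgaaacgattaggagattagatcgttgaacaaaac
PEX11D has 2 G-boxes in this window, the first bases of which lie at -84 and -45 relative to the gene start. The windows of PEX11E and PEX11A hold neither a G-box nor an ACGT. PEX11C has 1 ACGT, at -112, outside a G-box. Of 27443 protein-coding genes, 7.68% have a G-box and 49.9% an ACGT in the same window, counting both strands, and every G-box includes an ACGT. The W-box TTGACC, present upstream of 14.2% of genes, was found only for PEX11A among the 4 genes, at -163 on the opposite strand and at -118. TGACG (23.1% of genes), GACGTC (2.88%) and TACGTA (5.55%), of which the last pair also include ACGT, were found for none of them. These matches describe letters in a window and say nothing about binding.

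PEX11D transcripts were the most abundant and PEX11A transcripts the least, when CPM are divided by the length of the longest annotated transcript. In DMSO plants the level per kilobase was 165 CPM for PEX11D, 69.0 CPM for PEX11C, 32.1 CPM for PEX11E and 14.1 CPM for PEX11A. This order was the same in every group, and with the shortest annotated transcript of each gene, a length chosen after seeing the data. PEX11D made up 57.4% of the level per kilobase summed over the 4 genes in Stress + Pakerine, 59.0% in Stress, 60.9% in Pakerine and 58.8% in DMSO. The summed level was 268 CPM per kilobase in Stress + Pakerine, 308 in Stress, 278 in Pakerine and 279.8 in DMSO.

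The members of the PEX11C to PEX11E branch had their highest mean in Stress plants. PEX11D had 198 CPM (95% counting interval 195 to 201) in Stress + Pakerine plants, 234 CPM (231 to 237) in Stress plants, 218 CPM (215 to 221) in Pakerine plants and 212 CPM (209 to 215) in DMSO plants. PEX11E had 60.0 CPM (58.5 to 61.6), 70.4 CPM (68.8 to 72.2), 58.0 CPM (56.5 to 59.5) and 58.6 CPM (57.1 to 60.3) in the same order, so that Stress stood above the other groups. PEX11C had 85.3 CPM (83.4 to 87.2), 93.1 CPM (91.2 to 95.1), 80.7 CPM (78.9 to 82.5) and 87.0 CPM (85.1 to 89.0), likewise highest in Stress. PEX11A had 12.4 CPM (11.7 to 13.1), 12.5 CPM (11.8 to 13.3), 11.8 CPM (11.1 to 12.5) and 12.7 CPM (12.0 to 13.5), and all 4 of its intervals overlap. Relative to the mean its intervals are the widest of the family, because it had the fewest reads. In DMSO an estimated 1139 reads lay behind its mean, against 18968 for PEX11D, so that overlap partly reflects read number.

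**Figure D1:**
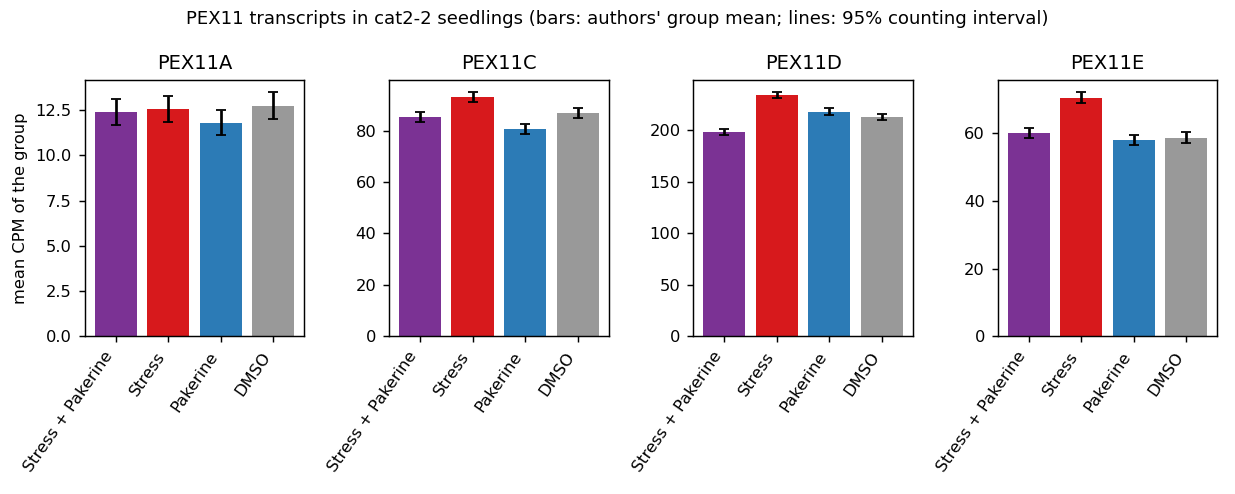
Mean CPM of the 4 PEX11 genes in the Stress + Pakerine, Stress, Pakerine and DMSO groups, each panel with its own axis from 0. Bars are the authors' group means and lines the 95% counting intervals, without replicate spread. PEX11D, PEX11E and PEX11C are highest in Stress, at 234, 70.4 and 93.1 CPM, while the highest mean of PEX11A is 1.08 times its lowest.

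The 4 genes differed in how far their group means lay apart. The highest group mean was 1.21 times the lowest for PEX11E, 1.18 times for PEX11D, 1.15 times for PEX11C and 1.08 times for PEX11A. Of the 11836 genes with at least 10 CPM in every group, 47.1% varied less than PEX11E, 32.0% less than PEX11D, 24.8% less than PEX11C and 7.15% less than PEX11A, measured as the root mean square deviation of log2 CPM from the gene's mean.

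In mock-treated plants the PEX11C to PEX11E branch had higher levels with stress. PEX11E had 70.4 CPM in Stress against 58.6 CPM in DMSO (log2 ratio 0.26, interval 0.21 to 0.32). PEX11D had 234 CPM in Stress against 212 CPM in DMSO (log2 ratio 0.14, interval 0.11 to 0.17), and PEX11C had 93.1 CPM in Stress against 87.0 CPM in DMSO (log2 ratio 0.10, interval 0.05 to 0.14). Differences of this size were frequent: 38.4% of the 12037 genes at 10 CPM or more in both groups had a ratio larger in size than that of PEX11E and 62.3% than that of PEX11D. PEX11A, at 12.5 CPM in Stress against 12.7 CPM in DMSO, had a log2 ratio of -0.02 whose interval of -0.14 to 0.09 includes 0, and its sign turned with both scaling alternatives. No member was past 1.5-fold, the fold used here as a limit, while 10.1% of the 18679 genes with at least 1 CPM in 1 or both groups were at least 1.5-fold higher and 9.23% at least 1.5-fold lower. The median over the 4 members was 0.12, beside -0.06 over all genes tested. Root markers were lower with stress: of the 11 with at least 1 CPM in 1 or both groups, 7 were at least 1.5-fold lower in Stress than in DMSO and none at least 1.5-fold higher, with a median of -0.71. Their part in the PEX11 ratios was not tested.

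In pakerine-treated plants the same comparison is that of Stress + Pakerine with Pakerine, which shares no library with Stress against DMSO. No member was past 1.5-fold in it, where 9.86% of 19112 genes were at least 1.5-fold higher and 6.47% at least 1.5-fold lower. PEX11D differed in direction from the mock-treated plants, with 198 CPM in Stress + Pakerine against 218 CPM in Pakerine, a log2 ratio of -0.14 (interval -0.16 to -0.11). Of the 12196 genes at 10 CPM or more in both groups, 59.4% had a ratio larger in size. PEX11C (0.08, interval 0.04 to 0.13), PEX11A (0.07, interval -0.05 to 0.19) and PEX11E (0.05, interval -0.004 to 0.10) were within a narrow range above 0. PP2-A13, the gene opposite PEX11E, had a log2 ratio of -0.96 here, and its part in the PEX11E value was not tested. The median over the members was 0.06, beside -0.03 over all genes tested. Of 13 root markers with at least 1 CPM in 1 or both groups, 12 were below 0 here, 1 of them past 1.5-fold, and 1 was at least 1.5-fold higher, with a median of -0.32, and their part in these ratios was not tested.

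**Figure D2:**
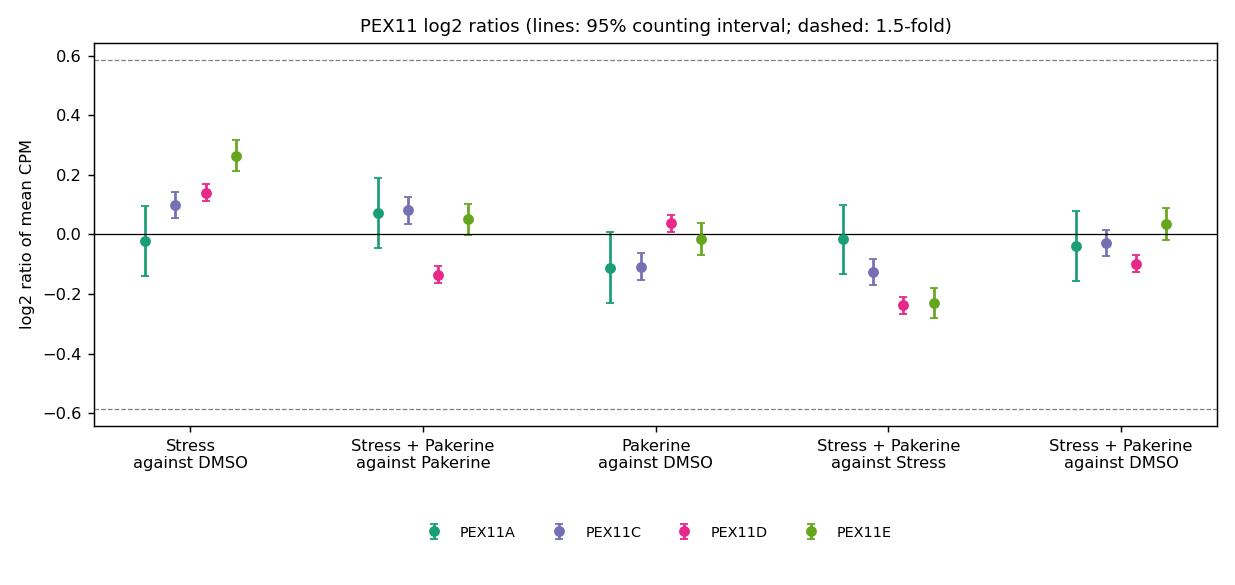
Log2 ratios of mean CPM of the 4 PEX11 genes in the 5 comparisons, with 95% counting intervals as lines and 1.5-fold as dashed lines. Every point lies inside the dashed lines, and the values run between 0.26 for PEX11E in Stress against DMSO and -0.24 for PEX11D in Stress + Pakerine against Stress.

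Without stress, PEX11A and PEX11C had lower means with pakerine. PEX11A (log2 ratio -0.11, interval -0.23 to 0.01, which includes 0) and PEX11C (-0.11, interval -0.15 to -0.06) were lower in Pakerine than in DMSO by amounts that 45.5% and 46.4% of the 12373 genes at 10 CPM or more in both groups exceeded in size. PEX11D (0.04, interval 0.01 to 0.07) and PEX11E (-0.02, interval -0.07 to 0.04) were close to 0, and the sign of PEX11E turned with both scaling alternatives. No member was past 1.5-fold, a limit that 7.04% of 18858 genes passed upwards and 2.05% downwards. Root markers moved with this comparison: of the 13 with at least 1 CPM in 1 or both groups, 12 were at least 1.5-fold higher in Pakerine than in DMSO and 1, WOX5, at least 1.5-fold lower. Their part in the PEX11 ratios was not tested.

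Under stress, pakerine was accompanied by lower levels of the PEX11C to PEX11E branch. This comparison shares the Stress libraries with Stress against DMSO, so that a high Stress mean enters both ratios. PEX11D had 198 CPM in Stress + Pakerine against 234 CPM in Stress, a log2 ratio of -0.24 (interval -0.27 to -0.21). PEX11E had 60.0 CPM in Stress + Pakerine against 70.4 CPM in Stress (-0.23, interval -0.28 to -0.18) and PEX11C 85.3 CPM in Stress + Pakerine against 93.1 CPM in Stress (-0.13, interval -0.17 to -0.08). No member was past 1.5-fold, a limit that 7.46% of 18936 genes passed upwards and 1.13% downwards. Within the 12302 genes at 10 CPM or more in both groups, 6.40% lay below PEX11D, 6.88% below PEX11E and 20.4% below PEX11C. PP2-A13, which overlaps PEX11E on the opposite strand, had 54.4 CPM in Stress + Pakerine against 83.1 CPM in Stress, a log2 ratio of -0.61, and its part in the PEX11E value was not tested. In the other comparisons PP2-A13 had log2 ratios of -0.37 for Stress against DMSO and -0.96 for Stress + Pakerine against Pakerine. They were -0.02 for Pakerine against DMSO and -0.98 for Stress + Pakerine against DMSO. PEX11A had a log2 ratio of -0.02 (interval -0.13 to 0.10). The median over the members was -0.18, beside 0.01 over all genes tested. Over genes at 10 CPM or more in both groups it was -0.02, with 55.4% of them below 0. Of the 12 root markers with at least 1 CPM in 1 or both groups, 11 were at least 1.5-fold higher in Stress + Pakerine than in Stress and none at least 1.5-fold lower, and their part in these ratios was not tested.

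Against DMSO, plants with both treatments had a PEX11D log2 ratio of -0.10 (interval -0.13 to -0.07), which was -0.045 and -0.044 with the scaling alternatives, outside this interval. PEX11E (0.03), PEX11C (-0.03) and PEX11A (-0.04) had intervals that include 0, and the signs of PEX11C and PEX11A turned with both scaling alternatives. No member was past 1.5-fold, beside 14.8% of 19052 genes that were at least 1.5-fold higher and 7.21% that were at least 1.5-fold lower. Of 13 root markers with at least 1 CPM in 1 or both groups, 9 were at least 1.5-fold higher in Stress + Pakerine than in DMSO and 1 at least 1.5-fold lower, and their part in these ratios was not tested. The comparisons with DMSO share the DMSO libraries.

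The interaction, the log2 ratio of stress in pakerine-treated plants minus that in mock-treated plants, was below 0 for 3 of 4 members. Its median was -0.12 over the members, beside 0.03 over the 17823 genes with at least 1 CPM in every group. Of those genes 43.7% had an interaction below 0.0006, a value close to 0. The interaction reuses the group means of the comparisons above and is not a separate result. For PEX11D it was -0.28 (interval -0.32 to -0.24), and among the 11836 genes with at least 10 CPM in every group 5.10% had a lower value. For PEX11E it was -0.21 (interval -0.29 to -0.14), with 8.35% of genes lower. The overlapping PP2-A13 had log2 ratios of -0.96 for Stress + Pakerine against Pakerine and -0.37 for Stress against DMSO. The part of PP2-A13 in the PEX11E interaction was not tested. For PEX11D the non-stressed groups were nearly level and Stress + Pakerine was the lowest group, whereas for PEX11E Stress alone stood above the other groups. PEX11C (-0.02, interval -0.08 to 0.05) and PEX11A (0.09, interval -0.07 to 0.26) had intervals that include 0. No spread between libraries enters these intervals, so that whether the interaction of any member exceeds replicate error was not tested.

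The listed light regulators differed more with stress than the PEX11 genes. HYH, a bZIP factor of light signaling, had 42.0 CPM in Stress against 10.2 CPM in DMSO, a log2 ratio of 2.04 (interval 1.93 to 2.14). With pakerine it had 42.6 CPM in Stress + Pakerine against 10.7 CPM in Pakerine, a log2 ratio of 2.00. HYH was thus 4.10-fold and 3.99-fold higher with stress in mock-treated and in pakerine-treated plants. Pakerine itself had HYH ratios of 0.06 (interval -0.07 to 0.19) without stress and 0.02 (interval -0.04 to 0.08) under stress. HY5, the related bZIP factor of light signaling, had 31.3 CPM in Stress against 19.1 CPM in DMSO (log2 ratio 0.71) and 28.7 CPM in Stress + Pakerine against 20.5 CPM in Pakerine (0.48). PHYA, the phytochrome A photoreceptor gene, did not pass 1.5-fold and was lower with stress, with 106 CPM in Stress against 136 CPM in DMSO (log2 ratio -0.36) and 96.1 CPM in Stress + Pakerine against 142 CPM in Pakerine (-0.56).

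In the gene lists of other peroxisome functions no member passed 1.5-fold, and those named are the extremes of their lists, chosen after their values were seen. Few genes at 10 CPM or more in both groups passed it: 1.91% for Pakerine against DMSO and 1.85% for Stress + Pakerine against Stress. In the remaining comparisons the share was between 10.1% and 11.5%. The fission machinery stayed within 1.5-fold in every comparison, for all 7 genes listed. DRP3B, a dynamin-related protein of peroxisomal and mitochondrial fission, was lower in Stress than in DMSO, with 71.8 CPM in Stress against 84.5 CPM in DMSO (log2 ratio -0.23, interval -0.28 to -0.19). FIS1A, the membrane anchor of fission, had the highest stress ratio of this list, 0.14 in Stress against DMSO and 0.28 in Stress + Pakerine against Pakerine. FIS1A was also the member with the lowest ratio for Pakerine against DMSO, at -0.27 (interval -0.32 to -0.21), where DRP5B, which also acts in chloroplast division, had the highest at 0.20 (interval 0.15 to 0.25). The median over the list was -0.03 for Stress against DMSO, beside 0.12 for the PEX11 genes.

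The 17 peroxins of matrix import and membrane assembly also stayed within 1.5-fold throughout, beside the shares of genes given above. For Stress against DMSO 10 were above 0 and 7 below, with PEX14, the docking protein of the import machinery, highest at 0.34 (interval 0.30 to 0.37) and PEX7, the receptor for matrix proteins with an N-terminal signal, lowest at -0.21 (interval -0.28 to -0.14). For Stress + Pakerine against Stress all 17 were below 0, or 16 after median-ratio scaling, with a median of -0.13. Among genes at 10 CPM or more in both groups 55.4% were below 0 in this comparison, with a median of -0.02. PEX13, another docking protein, was lowest, with 125 CPM in Stress + Pakerine against 148 CPM in Stress (log2 ratio -0.25, interval -0.28 to -0.21), close to PEX11D and PEX11E. The 4 peroxisomal transporters listed were below 0 there as well, with a median of -0.11. The 7 fission genes were mixed there, with 3 above 0 and 4 below, a median of -0.05 and DRP5B highest at 0.13. PXA1, the importer of fatty acyl compounds for β-oxidation, had log2 ratios of 0.30 for Stress against DMSO and 0.30 for Stress + Pakerine against Pakerine, so that among the transporters it had the highest stress ratio in both sets of plants.

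**Figure D3:**
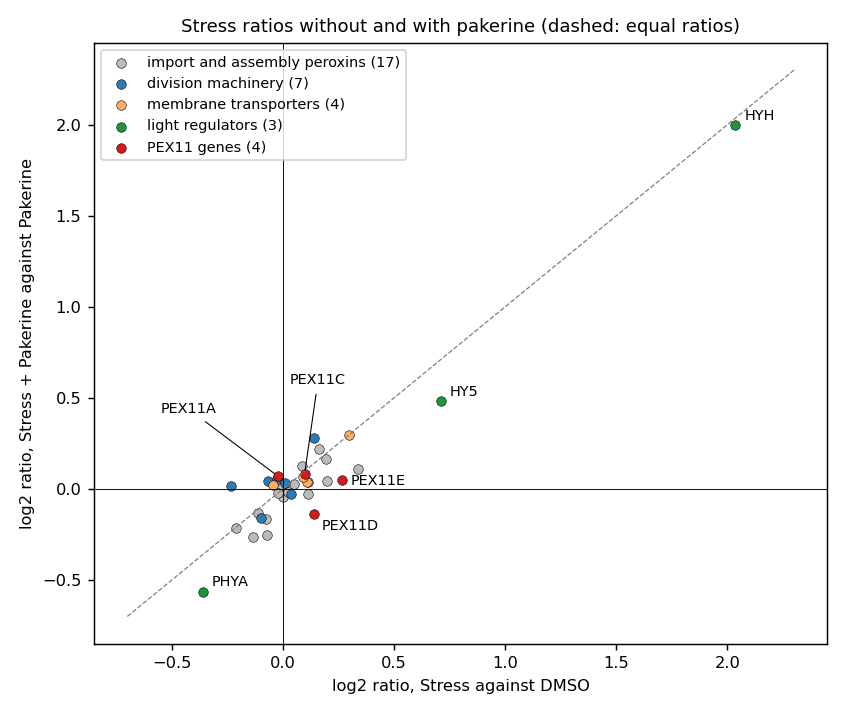
Log2 ratio of Stress + Pakerine against Pakerine (vertical axis) and of Stress against DMSO (horizontal axis) for 4 PEX11 genes, 17 import and assembly peroxins, 7 division genes, 4 transporters and 3 light regulators, with equal ratios on the dashed line. HYH lies near the line at 2.04 and 2.00, and PEX11D below it at 0.14 and -0.14.

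Genes with the most similar pattern over the 4 group means were searched among 11835 others with at least 10 CPM in every group, by the root mean square difference of log2 CPM centred on each gene. For PEX11D the nearest was ARF11, an auxin response factor (0.004), and for PEX11E it was CLPX, a subunit of an organellar Clp protease (0.01). For PEX11A it was SPI (0.003) and for PEX11C AT5G48655 (0.003). With only 4 values per gene many genes come close, and the likeness is a description of these means. Among the 4 genes PEX11A and PEX11C were nearest to each other (0.05), and PEX11A and PEX11E farthest apart (0.11).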

How the data were processed

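Leaf RNA of cat2-2 seedlings was sequenced as single reads of 75 bases, with 3 libraries in each of 4 groups. The authors used Trim Galore 0.3.3 for trimming, TopHat2 2.1.0 for alignment to TAIR10 and featureCounts (Subread 1.4.6) for counts per gene, left out rRNA and tRNA genes, and required more than 0.12 CPM in 3 samples. The deposited CPM values are the authors' means per group and sum to between 999887 and 999914. The table also holds the authors' log2 fold changes, p-values, FDR and calls from edgeR, which were not used.

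Log2 ratios were computed from the 4 mean columns without a pseudocount. Library sizes came from the means under 1.5 CPM, all of which were sums of whole reads with a residual of at most 5.38e-10 CPM. Counting intervals treat the reads behind a mean as Poisson counts. They were checked only on simulated Poisson counts without spread between replicates, which cannot show how they hold for real libraries. A fold of 1.5 served as limit, over genes with at least 1 CPM in 1 or both groups. The rule named the PEX11 genes, list genes past 1.5-fold (up to 4 per list and direction) and the 3 most similar genes per member. Other list genes were named after their values were seen. 1 gene of the family is not reported here. Members and lists were chosen with earlier results of these data known. Gene models, promoters and stretches came from RefSeq's TAIR10.1, with no coordinates in the table itself. Alternatives were a pseudocount, other scalings, folds, filters and lengths. Python 3.11.15, numpy 2.4.6, pandas 2.3.3, scipy 1.17.1, biopython 1.88 and matplotlib 3.10.9 were used.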

Additional observations from a re-analysis of the deposited data

How the results depend on the processing

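No paired analysis was possible because the table gives 1 mean per group, and for the same reason no library could be left out. The planned fit on counts of single libraries was not run, since each of the 16 PEX11 means is met by between 2 and 3411 sets of whole-number counts. A pseudocount of 1 CPM kept the sign of all 24 PEX11 log2 ratios and interactions and their side of 1.5-fold. The 2 scalings kept the side of 1.5-fold for 24 and the sign for 20 each, and 4 of the 24 moved beyond their counting interval. With median-ratio and trimmed-mean scaling, Stress + Pakerine against DMSO was 0.025 and 0.025 for PEX11C (-0.03 as deposited) and -0.045 and -0.044 for PEX11D (-0.10). PEX11D was 0.18 and 0.18 for Stress against DMSO (0.14) and 0.074 and 0.075 for Pakerine against DMSO (0.04). The signs that turned were those of PEX11A for Stress against DMSO and for Stress + Pakerine against DMSO, of PEX11C for Stress + Pakerine against DMSO and of PEX11E for Pakerine against DMSO.

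The background share past the fold, both directions together, depends on the filter. With a fold of 2 it was 7.17% for Stress against DMSO, 6.26% for Stress + Pakerine against Pakerine, 4.30% for Pakerine against DMSO, 4.08% for Stress + Pakerine against Stress and 10.0% for Stress + Pakerine against DMSO. With at least 10 CPM in both groups and a fold of 1.5 the shares in this order were 10.9%, 10.1%, 1.91%, 1.85% and 11.5%. Over all genes of the table they were 14.4% for Pakerine against DMSO and 13.6% for Stress + Pakerine against Stress, and the other 3 stayed within 1.5 times. The level of PEX11D in DMSO was 147 CPM per kilobase with the union of exons and 187 with the shortest transcript, a length chosen after seeing the data, which gave 50.9 for PEX11E.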
